A study of Mus musculus with 6 samples.

Results

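Rab GTPases are small membrane-bound switches, and 59 of their genes could be followed in mouse granulocytes on 6 Affymetrix Mouse Gene 1.0 ST arrays. A gene was a member when a probe set was annotated to it alone and its symbol was Rab followed by a number, with or without a letter and a digit after it. These 59 genes carry 62 probe sets, out of 19937 genes and 21640 probe sets annotated to a single gene, and each gene was represented by its brightest probe set over the 6 arrays. All 59 were tested, since no filter on low values was applied.

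Granulocytes of strain C57BL/6J were compared between 3 caffeine-plus and 3 caffeine-minus arrays. According to the treatment protocol, every plate first had 15 mM caffeine for 4 hours and was washed, and transcription was then stopped with 2 µg/ml actinomycin D for a further 4 hours. One plate had caffeine again during this block and the other did not, so both groups shared the first caffeine exposure and the actinomycin D. The source label of the caffeine-minus samples nevertheless says they were not treated with caffeine. All 6 arrays followed the actinomycin D block. Rise and fall therefore mean a higher or lower value on the caffeine-plus arrays, not a change over time. The series uses caffeine to inhibit nonsense-mediated decay, the pathway that removes mRNAs with premature stop codons, and asks which transcripts then accumulate. Decay activity was not measured, no genotype other than the strain is given, and the labels do not say whether the replicates are separate cultures or animals, so p-values reflect only array-to-array spread, possibly of technical origin.

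A Rab protein is active on a membrane when bound to GTP and is extracted back to the cytosol when bound to GDP. Exchange factors load GTP, activating proteins trigger its hydrolysis, and effectors such as tethers, motors and lipid kinases bind the active form, so that each Rab marks a step of vesicle traffic. Granulocytes depend on these steps for phagocytosis and for the release of their granules, and loss of RAB27A in humans gives an immune deficiency with defective cytotoxic granule release.

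The Rab genes split almost evenly by direction. At a limma adjusted p below 0.05, caffeine-plus values were above caffeine-minus values in 16 of the 59 and below them in 18, and 25 did not pass the test. Over all 19937 genes, 16.2% were called higher and 21.7% lower, against 27.1% and 30.5% of the Rab genes. Rab genes were brighter than most, with 38 of 59 above the median gene, and among all genes above that level 29.5% were higher and 33% lower, against 36.8% and 31.6% of those 38. The median log2 difference of the Rab genes was -0.09, beside -0.04 for all genes, while the median size of the difference regardless of sign was 0.34 for the Rab genes, 0.17 for all genes and 0.35 for all genes above the median level. Groups did not overlap in 39 Rab genes, or 66.1%, against 45.9% of all genes. Above the median level these shares were 76.3% of the Rab genes and 70.2% of all genes. At least 2-fold, 2 Rab genes were higher and 4 lower, where the shares over all genes were 2.63% and 3.15%. Of the 2 rises, Rab2a rests on a probe set that needs a caution given below, and its other probe set differed by 0.79.

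**Figure D1:**
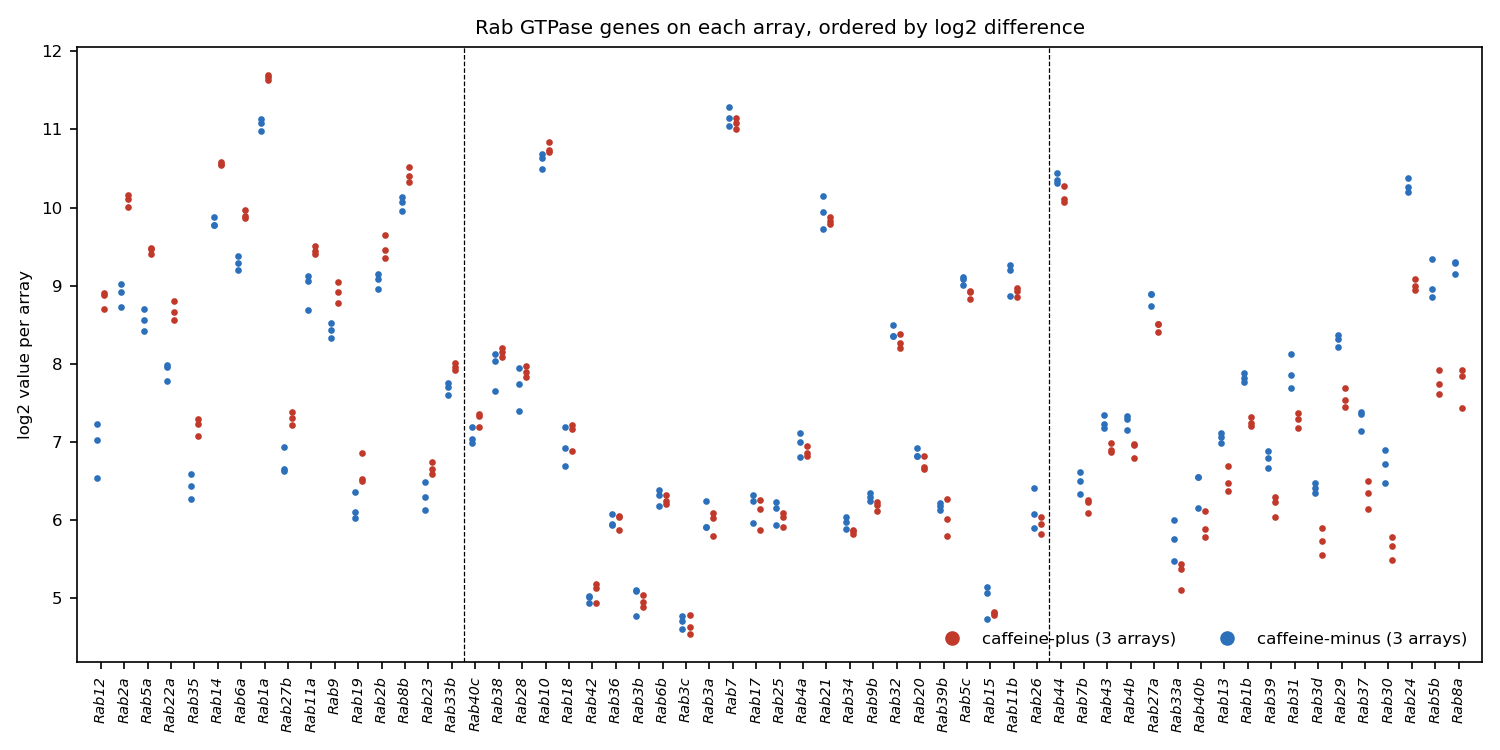
Log2 value of each of the 59 Rab genes on each array (red, 3 caffeine-plus arrays; blue, 3 caffeine-minus arrays), ordered from the largest rise to the largest fall; dashed lines bound the 25 genes that did not pass the test. The red points lie above the blue in the 16 genes on the left and below them in the 18 on the right, without overlap in either block. These blocks were set by the test on the same arrays. Over all genes 16.2% were called higher and 21.7% lower. Groups did not overlap in 45.9% of all genes and in 70.2% of those above the median level.

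Differences are caffeine-plus minus caffeine-minus log2 values with their standard errors from limma, and values of replicates 1, 2 and 3 are given in that order. Array medians lay between 6.49 and 6.60, and arrays correlated at 0.986 to 0.992 within a group and 0.959 to 0.965 between groups (Pearson, across probe sets). Of 18 measured neutrophil markers, 17 were above the median gene, with Mpo, Elane, S100a9 and Ngp among the brightest and Mmp9 below it. Some markers of other cells were bright too. Above the median gene lay 9 of 14 eosinophil, basophil or mast cell, 8 of 12 dendritic cell and 7 of 15 monocyte or macrophage markers. The same held for 3 of 10 B cell, 2 of 11 T or NK cell, 2 of 9 erythroid and 3 of 6 megakaryocyte or platelet markers. Median levels of the monocyte or macrophage (6.23), B cell (6.41), T or NK cell (5.82) and erythroid (6.43) lists lay below the median gene (6.68). Cell proportions were not measured, and in bulk RNA fewer cells of a type and less RNA per cell cannot be told apart. Over all genes 21.7% were called lower and 16.2% higher. Lists of markers of other cells had 7 of 15 members (46.7%) lower and 1 higher (monocyte or macrophage), and 9 of 12 (75%) and 0 (dendritic cell). They had 2 of 10 (20%) and 0 (B cell), 2 of 11 (18.2%) and 0 (T or NK cell), and 3 of 9 (33.3%) and 1 (erythroid). Summed linear levels of these lists on the caffeine-plus and caffeine-minus arrays ran from 5470 to 5701 and 6764 to 7147 (monocyte or macrophage), 1824 to 1893 and 2350 to 2471 (dendritic cell), 713 to 800 and 978 to 1121 (B cell), 1040 to 1138 and 1283 to 1319 (T or NK cell), and 1612 to 1632 and 1327 to 1545 (erythroid). The erythroid sum was higher through Tfrc alone, and without it the sums were 565 to 592 against 691 to 715. Their part in the results on Rab genes was not tested.

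Close relatives did not always go the same way. Members that share a number, such as Rab5a, Rab5b and Rab5c, give 21 pairs, and in 5 of these pairs 1 gene rose while the other fell: Rab1a and Rab1b, Rab5a and Rab5b, Rab8b and Rab8a, Rab27b and Rab27a, and Rab33b and Rab33a. In 18 of the 21 pairs, the log2 difference between both genes, taken within each array, did not overlap between the groups. Over all 1711 pairs of the 59 Rab genes, 16.8% had opposite calls and 70.1% did not overlap, beside 23.8% and 85.7% of the 21, so neither count is read as particular to relatives. An exact two-sided permutation test over the 6 arrays cannot give less than p = 0.10 with 3 arrays against 3, and these 18 pairs all reached that p (0.12 after Benjamini-Hochberg adjustment over the 21 pairs), so no pair could pass a threshold of 0.05.

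The upstream sequences of the members of the Rab5 and Rab8 pairs, which gave the widest divergences, are shown for comparison, as 250 bases up to the annotated start site from RefSeq on GRCm38.p6. The sites are chr17:53478984-53479233 on the plus strand for Rab5a, chr10:128696269-128696518 on the minus strand for Rab5b, chr8:72160950-72161199 on the plus strand for Rab8a and chr9:66919706-66919955 on the minus strand for Rab8b. Capitals mark TGACG on either strand, the core of the cAMP response element TGACGTCA, a motif for which CREB-family factors are known. The arrays did not measure promoter activity, and actinomycin D was present in both groups while they differed in caffeine.
Rab5a: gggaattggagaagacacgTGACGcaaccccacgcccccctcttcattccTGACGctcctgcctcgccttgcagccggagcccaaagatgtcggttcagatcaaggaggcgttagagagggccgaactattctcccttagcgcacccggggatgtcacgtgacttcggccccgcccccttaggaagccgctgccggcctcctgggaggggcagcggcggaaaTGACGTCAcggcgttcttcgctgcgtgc
Rab5b: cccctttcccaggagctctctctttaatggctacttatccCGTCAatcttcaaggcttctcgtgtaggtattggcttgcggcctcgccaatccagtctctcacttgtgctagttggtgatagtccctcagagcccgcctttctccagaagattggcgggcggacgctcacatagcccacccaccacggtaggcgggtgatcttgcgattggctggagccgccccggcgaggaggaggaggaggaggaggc
Rab8a: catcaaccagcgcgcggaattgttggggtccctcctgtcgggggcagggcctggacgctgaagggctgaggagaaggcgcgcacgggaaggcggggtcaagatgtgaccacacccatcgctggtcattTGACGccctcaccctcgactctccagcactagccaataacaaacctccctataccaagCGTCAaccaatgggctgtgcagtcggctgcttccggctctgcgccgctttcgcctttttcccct
Rab8b: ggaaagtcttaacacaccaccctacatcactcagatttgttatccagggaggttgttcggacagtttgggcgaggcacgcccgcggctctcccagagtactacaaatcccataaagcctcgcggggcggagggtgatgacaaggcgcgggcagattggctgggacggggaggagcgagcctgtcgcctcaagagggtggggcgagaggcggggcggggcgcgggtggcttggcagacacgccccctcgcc
Only the Rab5a sequence among these 4 holds the full TGACGTCA, which reads the same on both strands and contains TGACG on each, and the Rab8b sequence holds no TGACG. Of all 32851 start sites in the promoter table, 1.5% hold TGACGTCA and 17.8% hold TGACG in the same 250 bases. The full TGACGTCA occurred at 1 of 15 start sites of Rab genes that rose, 0 of 19 of those that fell and 1 of 26 of those that did not pass. Promoter entries existed for 48 of the 59 Rab genes. TGACG occurred at 5 of 15 start sites of Rab genes that rose, 8 of 19 of those that fell and 11 of 26 of those that did not pass. The median GC content was 64.0%, 59.2% and 58.6% in the same order, against 52.4% over the table. All 4 printed sequences are GC-rich, at 64.0% for Rab5a, 59.2% for Rab5b, 61.6% for Rab8a and 64.4% for Rab8b.

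**Figure D2:**
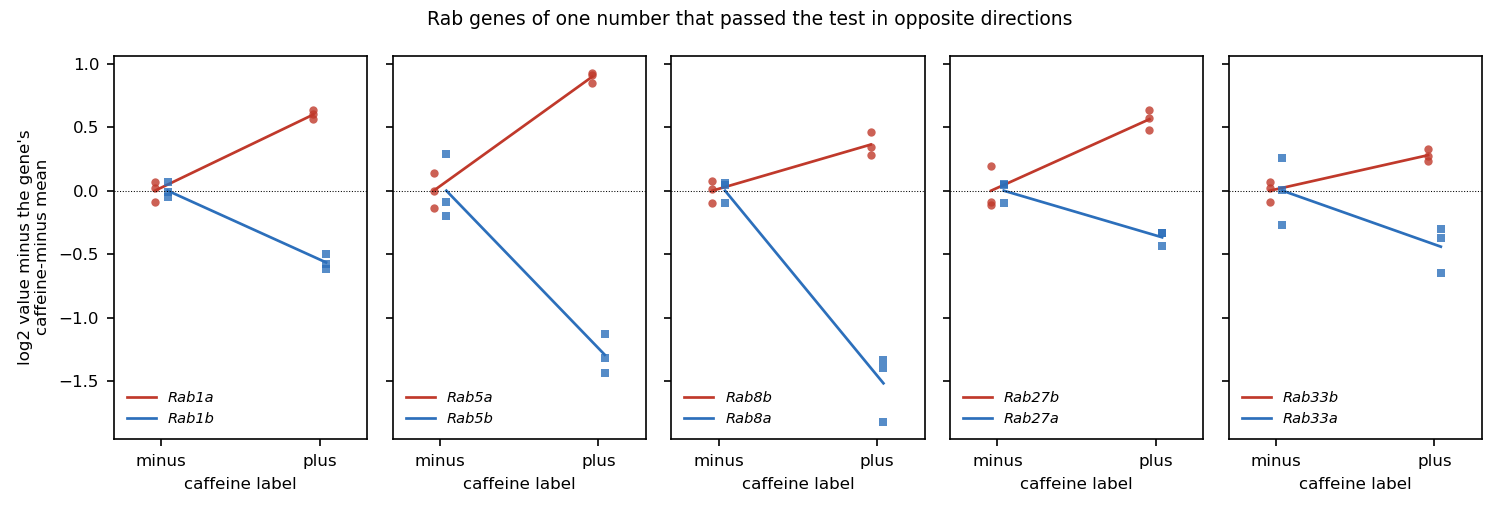
Log2 value on each array minus the same gene's caffeine-minus mean, for the 5 pairs of Rab genes with opposite calls (points, 3 arrays per group; lines join group means). Red genes rose and blue genes fell, and the lines part most in the Rab5 pair, by 2.19, and the Rab8 pair, by -1.88 for Rab8a minus Rab8b; levels of different probe sets are not compared.

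Rabs of the early and recycling endosomes contained both a group of 5 rises and the second largest fall of the family. Among 16 such genes there were 5 rises and 3 falls, and 8 stayed short of the threshold. The shares of rises and falls were 31.2% and 18.8%, beside 16.2% and 21.7% of all genes. Above the median level, 29.5% of all genes rose and 33% fell. Rab5a, which with its relatives governs fusion of early endosomes and early phagosomes, stood at 9.47, 9.49 and 9.41 with caffeine and at 8.70, 8.56 and 8.42 without. All caffeine-plus values lay above all caffeine-minus values, a 1.86-fold rise (log2 difference 0.90 ± 0.08, limma adjusted p = 1.7e-07). Rab5b, whose protein works on the same membranes, stood at 7.92, 7.62 and 7.74 with caffeine and at 8.85, 9.34 and 8.96 without. It was lower on every caffeine-plus array, by 2.45-fold (-1.29 ± 0.12, adjusted p = 1.9e-07). Rab5c, the remaining member, had values of 8.93, 8.92 and 8.84 against 9.01, 9.08 and 9.12. These did not overlap but gave a difference of only -0.18 ± 0.07 (adjusted p = 0.062). That gene passed as lower after quantile normalization (adjusted p = 0.0089), among genes above the median level (0.042) and without caffeine-minus array 1 (0.043).

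The brightest probe sets of Rab5b and Rab2a need a caution. Probe sets of this array follow one another by chromosome in the order of their numbers, and 59 of the 62 Rab probe sets lay among neighbours on their own gene's chromosome. The chosen Rab5b probe set, 10486057, had all 20 of its nearest named neighbours on chromosome 2, whereas Rab5b lies on chromosome 10. For Rab2a on chromosome 4, the chosen probe set 10529873 had all 20 on chromosome 5. Probes for a near-identical copy elsewhere would share signal with the gene, and the annotation does not say which locus was measured. The other probe set of each gene, among neighbours of the right chromosome, went the same way: Rab5b by -1.07 ± 0.16 (limma adjusted p = 0.0019 in a fit of every probe set, in which 30.1% of probe sets passed) and Rab2a by 0.79 ± 0.07 (0.00014). Rab11b also has a second probe set, among neighbours on chromosome 19 rather than 17, which differed by -0.18 ± 0.11 beside -0.19 ± 0.11 for the chosen one in that fit, and neither passed. The dimmer Rab5b probe set read 6.03, 6.56 and 6.45 with caffeine and 7.64, 7.26 and 7.35 without, again with no overlap. Rab5b also overlaps Pmel, itself 1.49-fold lower, in the reference annotation.

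Among the other endosomal members, Rab22a, which acts between the trans-Golgi network and endosomes, read 8.56, 8.81 and 8.67 against 7.99, 7.96 and 7.78. Its groups were separate and the rise was 1.70-fold (0.76 ± 0.09, limma adjusted p = 3.7e-06). Its closest relative Rab31 went the other way, at 7.30, 7.37 and 7.18 against 8.13, 7.86 and 7.70. Every caffeine-plus value of Rab31 was below every caffeine-minus value, a 1.53-fold fall (-0.62 ± 0.11, adjusted p = 0.00022). Rab22a and Rab31 do not share a number and were set side by side after their values were seen.

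Rab35, a regulator of fast recycling to the plasma membrane, read 7.29, 7.23 and 7.08 against 6.59, 6.44 and 6.27. It rose 1.70-fold on separate groups (0.76 ± 0.11, limma adjusted p = 2.2e-05). Rab14, found on the trans-Golgi network, endosomes and phagosomes, was bright and tight, at 10.54, 10.56 and 10.58 against 9.89, 9.78 and 9.78. The SD within its groups was 0.02 and 0.06, and the rise of 0.75 ± 0.06 (1.68-fold, adjusted p = 4.8e-08) was many times that spread. Rab11a, the main Rab of recycling endosomes, read 9.44, 9.51 and 9.41 against 9.07, 9.12 and 8.69. It rose 1.40-fold (0.49 ± 0.10, adjusted p = 0.00058), while its relative Rab11b gave -0.19 ± 0.09 with overlapping groups (adjusted p = 0.13). Rab11b passed as lower after quantile normalization (adjusted p = 0.035) and without caffeine-minus array 2 (0.0059). Rab4b, a Rab of rapid recycling, fell by 0.34 ± 0.10 on the log2 scale (adjusted p = 0.0088), a call lost without caffeine-plus array 1 (0.065), and Rab4a gave -0.10 ± 0.10. The remaining Rab15, Rab17, Rab20, Rab21 and Rab25 gave differences from -0.18 to -0.08, none past the threshold in the fit reported here, and Rab21 passed as lower after quantile normalization (-0.20, adjusted p = 0.036) and without caffeine-minus array 3 (-0.21, 0.017).

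**Figure D3:**
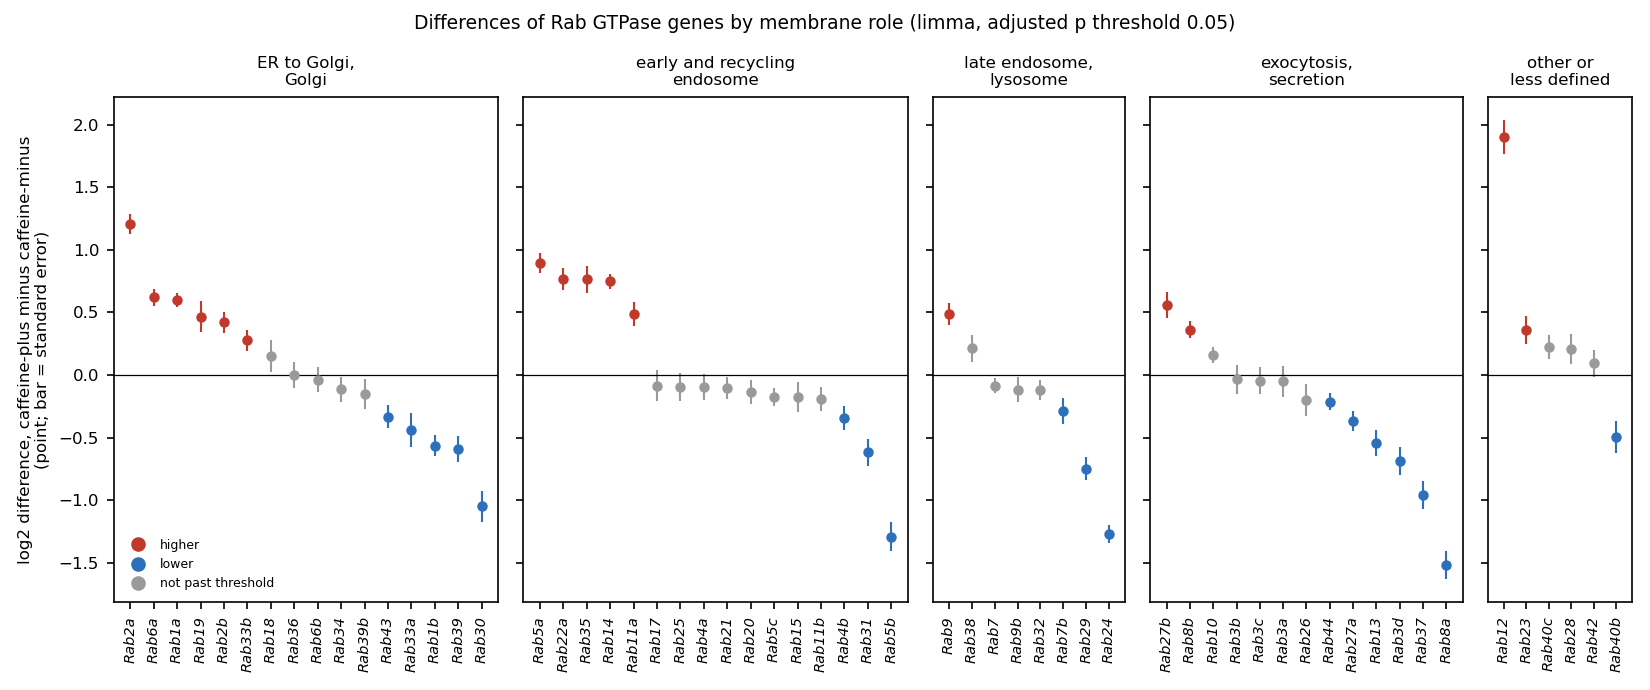
Log2 difference of each Rab gene, caffeine-plus minus caffeine-minus (point) with its standard error (bar), in panels by the membrane its protein is known for; colours give the limma call at an adjusted p of 0.05. Every panel holds both rises and falls. The secretion panel has 2 rises and 6 falls, or 15.4% and 46.2%, beside 16.2% and 21.7% of all genes. Rab12 on the right stands highest at 1.90.

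On the route from the endoplasmic reticulum through the Golgi, 6 of 16 Rab genes rose and 5 fell, or 37.5% and 31.2%. Over all genes 16.2% rose and 21.7% fell, and above the median level 29.5% and 33%. Rab2a, needed for traffic between these compartments, read 10.01, 10.12 and 10.17 against 9.02, 8.93 and 8.73. Its caffeine-plus values all exceeded its caffeine-minus values, and it was 2.31-fold higher (1.21 ± 0.08, limma adjusted p = 7.8e-09). These values come from the probe set cautioned above, and the other Rab2a probe set differed by 0.79 ± 0.07. Rab2b rose less, 1.34-fold (0.42 ± 0.08, adjusted p = 0.00062), while Tox4, whose span overlaps it, was 1.23-fold lower. Rab1a, an essential Rab of export from the endoplasmic reticulum, read 11.63, 11.70 and 11.67 against 11.14, 11.09 and 10.98. It rose 1.51-fold without overlap (0.60 ± 0.05, adjusted p = 1.4e-07). Rab1b, which acts at the same step, read 7.32, 7.25 and 7.21 against 7.77, 7.89 and 7.81. Here the caffeine-plus arrays were the low ones, a 1.48-fold fall (-0.56 ± 0.09, adjusted p = 5.4e-05).

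Rab6a, a Rab of retrograde transport at the Golgi, read 9.90, 9.86 and 9.97 against 9.38, 9.30 and 9.20. It rose 1.54-fold on separate groups (0.62 ± 0.07, limma adjusted p = 2e-06), while Mrpl48, which overlaps its span, was 1.26-fold lower and Rab6b gave -0.04 ± 0.10. Rab30, a Golgi Rab, had the largest fall of this set, at 5.49, 5.67 and 5.79 against 6.71, 6.89 and 6.47. Its groups stood a wide step apart, with a 2.07-fold fall (-1.05 ± 0.12, adjusted p = 3.7e-06). Rab39, implicated in phagosome acidification, fell 1.51-fold (-0.59 ± 0.11), and Rab43, a Golgi Rab, fell 1.26-fold (-0.33 ± 0.09). Rab33b, a Golgi Rab whose protein binds the autophagy factor ATG16L1, rose by 0.28 ± 0.08 (adjusted p = 0.014; 0.075 without caffeine-plus array 1), and Rab19 by 0.46 ± 0.12 (0.0065; 0.054 without that array). Rab33a fell by 0.44 ± 0.14 on the log2 scale (adjusted p = 0.018), with the call lost without caffeine-plus array 3 (0.083), without caffeine-minus array 1 (0.11) and when every probe set was tested (0.081), so the opposite calls of the Rab33 pair are the least settled of the 5. Rab18, Rab34, Rab36 and Rab39b lay between -0.15 and 0.15 and did not pass.

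Late endosomal and lysosomal Rabs gave 3 falls and 1 rise among 8, or 37.5% and 12.5%. Over all genes 21.7% fell and 16.2% rose, and above the median level 33% and 29.5%. Rab24, an unusual Rab with low GTPase activity that is linked to autophagy, read 9.0, 9.09 and 8.95 against 10.38, 10.20 and 10.27. All its caffeine-plus values were more than a full log2 unit below the lowest caffeine-minus value, a 2.41-fold fall (-1.27 ± 0.07, limma adjusted p = 1.1e-09) that had the smallest p of the family. Rab29, a Rab of the trans-Golgi network and lysosomes that recruits the kinase LRRK2, read 7.69, 7.54 and 7.44 against 8.37, 8.32 and 8.22. It fell 1.68-fold with no overlap (-0.75 ± 0.09, adjusted p = 4.4e-06). Rab7, the central Rab of late endosomes and phagosome maturation, read 11.08, 11.14 and 11.01 against 11.05, 11.14 and 11.29. Its groups overlapped, and the difference of -0.08 ± 0.06 did not pass (adjusted p = 0.37). Rab9, which returns cargo from late endosomes to the trans-Golgi network, rose 1.40-fold (0.49 ± 0.09, adjusted p = 0.00024), and Rab9b gave -0.12 ± 0.10. Rab7b passed narrowly as lower (-0.29 ± 0.11, adjusted p = 0.047). That call was lost in 9 of 15 other settings, among them each of the 3 settings without a caffeine-plus array (adjusted p = 0.070, 0.079 and 0.15), without caffeine-minus array 2 (0.098) and without caffeine-minus array 3 (0.17). Rab32 and Rab38, Rabs of lysosome-related organelles, gave -0.12 ± 0.08 and 0.21 ± 0.11 and did not pass.

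Rabs of exocytosis and regulated secretion had 6 falls and 2 rises among 13, or 46.2% and 15.4%. Over all genes 21.7% fell and 16.2% rose, and above the median level 33% and 29.5%. Rab8a, which drives vesicles from the Golgi and recycling compartments to the cell surface, was the largest fall of the family, at 7.92, 7.85 and 7.43 against 9.29, 9.31 and 9.15. The groups stood more than a log2 unit apart, a 2.86-fold fall (-1.52 ± 0.11, limma adjusted p = 2.1e-08). Rab8b, its relative, read 10.52, 10.40 and 10.33 against 9.96, 10.14 and 10.07. Its caffeine-plus values were the high ones, by 1.29-fold (0.36 ± 0.07, adjusted p = 0.00036). Rab10, a further relative that acts in delivery to the plasma membrane, had separate groups but gave 0.16 ± 0.06 (adjusted p = 0.055). Rab10 passed as higher in 6 of 16 other settings, with adjusted p between 0.016 and 0.041, among them without caffeine-minus array 1 (0.021). Rab10os, an antisense RNA whose span overlaps Rab10, was itself 1.69-fold higher.

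Of the Rabs known for granule release, Rab27a, Rab37 and Rab3d fell and Rab27b rose. Rab37, a Rab of secretory granules, read 6.50, 6.34 and 6.14 against 7.36, 7.38 and 7.14. It was lower on all caffeine-plus arrays, by 1.95-fold (-0.96 ± 0.11, limma adjusted p = 3.5e-06), and Cd300lf, a myeloid receptor gene whose span overlaps it, was 1.28-fold lower. Rab3d, another secretory granule Rab, read 5.74, 5.90 and 5.55 against 6.35, 6.48 and 6.41. The fall was 1.61-fold with no overlap (-0.68 ± 0.11, adjusted p = 0.00011). Rab27a, which docks azurophil and other granules at the membrane, read 8.51, 8.41 and 8.51 against 8.90, 8.75 and 8.89. It fell 1.29-fold (-0.37 ± 0.08, adjusted p = 0.001), also without overlap.

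Rab27b, which shares effectors with Rab27a, read 7.31, 7.38 and 7.22 against 6.94, 6.66 and 6.63. It rose 1.48-fold on separate groups (0.56 ± 0.10, limma adjusted p = 0.00035). Rab44, a large Rab with an extended amino-terminal part, read 10.07, 10.28 and 10.11 against 10.44, 10.35 and 10.31. It lay lower on each caffeine-plus array, but only by 0.21 ± 0.07 (adjusted p = 0.018), and the call was lost in 6 of 16 other settings: without caffeine-plus array 1 (0.11) or 3 (0.079), without caffeine-minus array 1 (0.069), with arrays centred on their medians (0.14), when every probe set was tested (0.060) and without an intensity trend (0.085). Rab13, a Rab of surface delivery and cell junctions, fell 1.45-fold (-0.54 ± 0.10, adjusted p = 0.00049). Rab3a, Rab3b, Rab3c and Rab26, secretory Rabs best known from neurons and glands, gave -0.20 to -0.03 and did not pass, and the signs of the Rab3a, Rab3b and Rab3c differences turned with arrays centred on their medians.

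Neutrophil markers were lower in the same cells. Of 18 measured of 20 listed neutrophil markers, 17 (94.4%) were lower and none higher, beside 21.7% and 16.2% of all genes. Above the median level, 33% of all genes were lower. The summed linear level of the 18 ran from 23557 to 24205 on the caffeine-plus arrays and from 33227 to 34966 on the caffeine-minus arrays. Of 14 eosinophil, basophil or mast cell markers, 5 (35.7%) were lower and 2 (14.3%) higher, with sums of 6634 to 6669 against 9404 to 10306. Without Mcpt8 and Prg2, both lower, the sums of the remaining 12 overlapped, at 2943 to 3033 against 2992 to 3183. Of 6 measured of 10 megakaryocyte or platelet markers, a lineage in which Rab27b is known to act, 2 (33.3%) were lower and none higher. Their sums were 711 to 733 against 852 to 921. No marker is listed at 0, since these arrays give a value for every probe set, and the part of such markers in the Rab results was not tested.

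Among the Rabs listed as other or less defined was the largest rise of all 59, that of Rab12. Rab12, which steers transferrin receptor to lysosomes, read 8.88, 8.90 and 8.71 against 7.03, 7.23 and 6.54. The caffeine-plus values were all more than a log2 unit above the highest caffeine-minus value, a 3.73-fold rise (1.90 ± 0.14, limma adjusted p = 1.8e-08). Rab23, a negative regulator of Hedgehog signalling, rose by 0.36 ± 0.11 (adjusted p = 0.015), a call lost without caffeine-plus array 2 (0.069) or caffeine-minus array 3 (0.068). Rab40b, whose protein carries a SOCS box for ubiquitin ligases, fell by 0.49 ± 0.13 on the log2 scale (adjusted p = 0.0058). Its relative Rab40c gave 0.22 ± 0.10 (adjusted p = 0.082) and passed as higher after quantile normalization (0.012), with arrays centred on their medians (0.026), among genes above the median level (0.047) and without caffeine-minus array 1 (0.042). Rab28 and Rab42 gave 0.21 ± 0.12 and 0.09 ± 0.11 and did not pass, although Rab28 did without caffeine-minus array 1 (0.33, adjusted p = 0.027).

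Gene structure was set against the differences as a description. Across the 59 Rab genes the log2 difference had a Spearman correlation of 0.22 with genomic span and 0.25 with mean level, beside 0.19 over 19854 genes with a known span and 0.02 over 19937 genes; the genes share the same 6 arrays. The median span was 23954 bases for the 16 rises, 21145 for the 18 falls and 24800 for the 25 others, with ranges of 9958 to 162503, 2758 to 121027 and 2945 to 226810. In the reference annotation 26 of the 59 spans overlap another gene, and 6 of those partners had a probe set of their own; Pp2d1, which overlaps Rab5a, differed by -0.02 ± 0.10.

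The genes that load, unload and read Rab proteins leaned towards rises. Of 162 measured regulators and effectors, 63 were higher and 24 lower, or 38.9% and 14.8% beside 16.2% and 21.7% of all genes, with a median log2 difference of 0.05. Of these 162, 116 lay above the median gene, a level above which 29.5% of all genes were higher and 33% lower. Activating proteins had 16 of 38 higher and 2 lower, or 42.1% and 5.26%, and 28 of the 38 lay above the median gene. The 2 falls were Tbc1d25 (-0.76 ± 0.10) and Tbc1d7 (-0.69 ± 0.12), named after their values were seen. Tbc1d15, which acts on Rab7 at mitochondria and lysosomes, was 2.35-fold higher (1.23 ± 0.07, limma adjusted p = 7.9e-10). Tbc1d12 was 2.32-fold and Rab3gap2, a subunit of the Rab3 activating complex that also serves as an exchange factor for Rab18, 2.24-fold higher. Usp6nl, an activating protein for Rab5, was 2.01-fold and Evi5 1.58-fold higher.

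Exchange factors had 14 of 41 higher and 8 lower, or 34.1% and 19.5%, beside 16.2% and 21.7% of all genes. Of the 41, 27 lay above the median gene, a level above which 29.5% of all genes were higher and 33% lower. Ric1, which with Rgp1 activates Rab6, was 2.38-fold higher (1.25 ± 0.07, limma adjusted p = 2.7e-09), while Rgp1, named after its value was seen, was lower (-0.49 ± 0.08). Rabgef1, the exchange factor also called Rabex-5 that activates Rab5, was 1.91-fold higher, C9orf72 1.85-fold, Rab3ip (Rabin8), which activates Rab8, 1.83-fold and Dennd4a 1.74-fold. All 8 dimmer probe sets of Dennd4a were higher too, by 0.63 to 1.47. Effectors had 28 of 65 higher and 9 lower, or 43.1% and 13.8%, and 44 of the 65 lay above the median gene. Acap2, an Arf6 activating protein that binds Rab35, was 2.13-fold higher, Pik3c3, the phosphatidylinositol 3-kinase VPS34, 2.03-fold, and the golgin Gcc2 1.80-fold. The Rab5 effectors Rabep1 and Eea1, which tether early endosomes, were 1.78-fold and 1.58-fold higher. Unc13d (Munc13-4), the Rab27a partner in granule priming, named after its value was seen, was lower (-0.32 ± 0.10, adjusted p = 0.020). The largest fall among the effectors was that of Rab11fip2 (-0.53 ± 0.09, limma adjusted p = 0.00014).

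Factors that attach Rab proteins to membranes and remove them were evenly divided, with 5 of 18 higher and 5 lower. Each share was 27.8%, beside 16.2% and 21.7% of all genes. Of the 18, 17 lay above the median gene, a level above which 29.5% of all genes were higher and 33% lower. Rabggtb, the catalytic subunit of Rab geranylgeranyl transferase, which adds the lipid anchor, read 12.00, 12.02 and 11.93 against 10.71, 10.70 and 10.47. It was 2.56-fold higher on separate groups (1.36 ± 0.06, limma adjusted p = 2.5e-10), and its span holds the small nucleolar RNA genes Snord45b and Snord45c. Chm, the Rab escort protein that presents Rabs to this enzyme, was 1.80-fold higher. Ggps1, which makes the geranylgeranyl donor, was 1.39-fold lower, and Yif1a, a partner of the YIP family of Rab-associated membrane proteins, was 2.59-fold lower. Lrrk2, the kinase that phosphorylates several Rabs including Rab8a, Rab10 and Rab12, was 1.55-fold higher by its brightest probe set, while the dimmer one gave 0.25 ± 0.17 and did not pass.

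**Figure D4:**
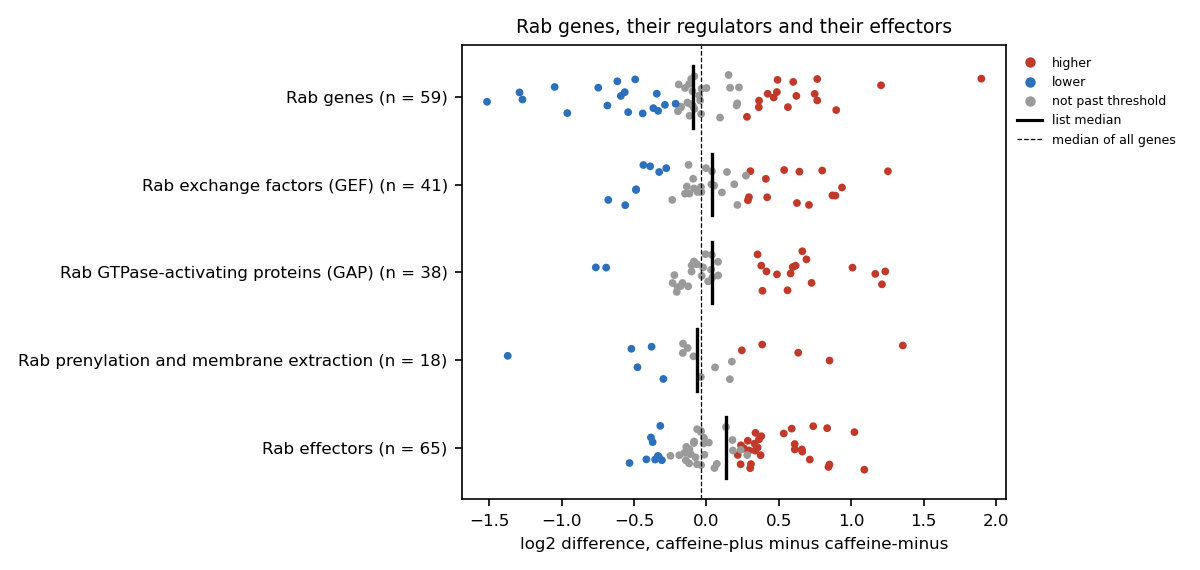
Log2 differences, caffeine-plus minus caffeine-minus, of the 59 Rab genes and of the measured genes of 4 lists of Rab regulators and effectors (points, coloured by limma call, jittered vertically; bars, list medians; dashed line, median of all genes at -0.04). Rises outnumber falls among activating proteins, 16 to 2 (42.1% and 5.26%), and effectors, 28 to 9 (43.1% and 13.8%). The Rab genes themselves spread to both sides. Over all genes 16.2% were higher and 21.7% lower, and above the median level 29.5% and 33%.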

How the data were processed

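RNA from 6 arrays was measured, 3 per group. The deposited table holds 34760 probe sets, whose values were taken as log2 values normalized by the authors, from their range of 1.90 to 13.98; the sources used here do not give the method of summarization or normalization. Dim probe sets understate changes, and the number of arrays limits the precision. Platform annotation named 21640 probe sets by 1 gene and 1321 by several, and 11799 were not listed; 21553 of the 21640 were found in the RefSeq table of GRCm38.p6, used for symbols, spans and promoters. No single-gene probe set was left out.

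A linear model from limma 3.58.1 (R 4.3.3; lmFit, then eBayes with an intensity trend, two-sided) was fitted to all 19937 genes, calling a gene at a Benjamini-Hochberg adjusted p below 0.05. The fit was tested on simulated arrays in which 200 of 19937 genes were changed. It recovered 58% of log2 changes of 0.5 and 97% of changes of 1, and 3.12% of its calls were false. In the measured arrays 37.9% of genes were called, so the simulated setting differed from them. Named in full are the 8 largest rises and falls and a set of 12 Rab genes (Rab1a, Rab3d, Rab5a, Rab5b, Rab5c, Rab7, Rab11a, Rab14, Rab27a, Rab27b, Rab37 and Rab44), and from each regulator list the 5 genes with the smallest p. Some entries of the regulator lists are not reported here. Replicate numbers were not taken to pair arrays. The members and lists were chosen with earlier results of these data known. Figures were drawn with matplotlib 3.10.9. The settings varied were normalization, filters on dim genes, the probe set per gene, the variance model, array weights, a replicate block and each array left out in turn.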

Additional observations from a re-analysis of the deposited data

How the results depend on the processing

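Over 16 other settings, between 14 and 19 Rab genes were higher and between 13 and 20 lower, against 16 and 18, and leaving out each array in turn gave 14 to 19 and 15 to 18. Of the 34 called Rab genes, 27 stayed past the threshold in the same direction in every setting in which they were tested; Rab4b, Rab7b, Rab19, Rab23, Rab33a, Rab33b and Rab44 did not. Another 6 passed in some setting (Rab5c, Rab10, Rab11b, Rab21, Rab28 and Rab40c). Regulators and effectors were higher in 52 to 68 and lower in 18 to 26, against 63 and 24. The cause of these changes was not tested.

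Signs turned in 6 genes near 0, none past the threshold: with arrays centred on their medians Rab3a gave 0.0085, Rab3b 0.025, Rab3c 0.015 and Rab6b 0.022, and after quantile normalization Rab6b gave 0.019. Leaving out 1 array gave -0.11 to 0.059 for Rab3a, -0.14 to 0.023 for Rab3b, -0.11 to 0.0092 for Rab3c, -0.096 to 0.011 for Rab6b, -0.19 to 0.024 for Rab17 and -0.030 to 0.055 for Rab36.

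With the replicate number as a block, 17 Rab genes were higher and 18 lower. Same-numbered arrays had correlated deviations of -0.04, 0.10 and 0.21, and not every array correlated best with its own number. Centring on medians moved the median of all genes by 0.06. The number of arrays, with dim probe sets such as Rab3c and Rab15, limits what small differences could be seen.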
